A study of Mus musculus with 8 samples.

Results

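Within the single cells sorted from mouse back skin epidermis, one set was chosen by the transcripts of 3 genes, *Aldh3a1*, *Sostdc1* and *Dct*. *Aldh3a1* encodes an aldehyde dehydrogenase that clears reactive aldehydes, *Sostdc1* a secreted inhibitor of BMP ligands that also modulates Wnt signaling, and *Dct* an enzyme of melanin synthesis. A well of a sorted plate was a member when it held at least 2 transcripts of the 3 genes together, and stayed under limits for *Krt1* and *Krt10*, for *Cst6*, *Defb6* and *Krt79*, for *Postn*, *Cd34*, *Angptl7* and *Lhx2*, and for T cell and antigen-presenting cell genes. Of 2304 wells on 6 plates, 1009 passed the depth and quality limits, 904 of these were epidermal, and 159 were members. The working name of the set counted *Dct* among its markers, but *Dct* was found in only 2 members, so the set is called the *Aldh3a1*/*Sostdc1* wells here.

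The plates came from adult C57BL/6 mice that carry EGFP-IRES-CreERT2 in the *Troy* (*Tnfrsf19*) locus, so that EGFP and the tamoxifen-inducible Cre follow the *Troy* promoter in whichever cells use it. From 4 *Troy*-EGFP mice, ITGA6-, ITGA6bright EGFP- and ITGA6bright EGFP+ cells were sorted. From 2 male traced mice, homozygous for the *Troy* allele and for Rosa26-LSL-tdTomato, cells were sorted by ITGA6, EGFP and tdTomato 1 week after a single tamoxifen injection that switched on tdTomato in *Troy*-expressing cells and their progeny. Bulk libraries from 2 further *Troy*-EGFP replicates held all viable cells, ITGA6bright EGFP+ cells and ITGA6bright EGFP- cells. The gate of each single well was not used here, so a well is described by its transcripts alone.

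Interfollicular epidermis (IFE) and hair follicle (HF) are continuous sheets of keratinocytes, in which basal cells attach to the basement membrane through integrins and divide, while committed cells leave it and switch to other keratins. The lower follicle holds the bulge, a store of slow-cycling stem cells marked by *Cd34* and *Postn*, and the upper follicle leads through the isthmus and infundibulum to the surface, next to the sebaceous gland. BMP and Wnt signals and their secreted inhibitors are known to time rest and growth of the follicle. Aldehyde dehydrogenases, retinoid enzymes and the glutathione system protect skin cells from aldehydes and oxidants.

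The members were compared with 4 other classes of epidermal wells: 236 undifferentiated wells under the same limits with fewer than 2 defining transcripts, 156 committed wells over the *Krt1* and *Krt10* limit, 243 bulge wells over the *Postn*, *Cd34*, *Angptl7* and *Lhx2* limit, and 104 upper follicle wells over the *Cst6*, *Defb6* and *Krt79* limit. A further 6 wells passed several limits. Members held between 1090.4 and 13927 transcripts each, with a median of 3628, against 3192 in undifferentiated wells. *Troy*-EGFP mice 3 and 4 stood apart from the other 4 plates: they were the plates with *Xist* and without *Ddx3y*, their *Krt15* level was 1374 and 1553 transcripts per 1000000 (CPM) over all kept wells against 6478 to 12374 elsewhere, and 247 and 256 of their genes were listed under older symbols. Sex, counting and biology cannot be told apart for these plates, so the member share and the counts of called genes are also given without them.

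The share of members was higher in both traced mice than in any *Troy*-EGFP mouse. Members made up 21.1% of 218 epidermal wells in traced mouse 1 (95% exact binomial interval 15.9 to 27.1%) and 28.3% of 184 in traced mouse 2 (21.9 to 35.4%). In *Troy*-EGFP mice 1 to 4 they made up 14.8% of 27 wells (4.19 to 33.7%), 12.3% of 114 (6.88 to 19.7%), 9.20% of 163 (5.24 to 14.7%) and 14.1% of 198 (9.61 to 19.8%). The groups did not overlap, although the intervals of single mice did, and these intervals cover counting error only. The means were 24.7% ± 5.06 (SD, n = 2 mice) and 12.6% ± 2.51 (SD, n = 4 mice), a difference of 12.1 percentage points with a two-sided exact permutation p = 0.0667, which is the smallest that 15 arrangements of 2 and 4 mice can give. When every well was thinned to 1000 barcodes before the rule was applied, the difference was 7.82 points, and the traced mice remained the highest pair. Without *Troy*-EGFP mice 3 and 4 it was 11.1 points (exact permutation p = 0.333, the smallest that 2 against 2 mice can give). The sorting gates, genotype and tamoxifen differ between the experiments, so a cause of the difference cannot be told apart from these. By *Xist* and *Ddx3y*, *Troy*-EGFP mice 3 and 4 also differed in sex from the traced mice, and *Troy*-EGFP mice 1 and 2 did not.

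**Figure D1:**
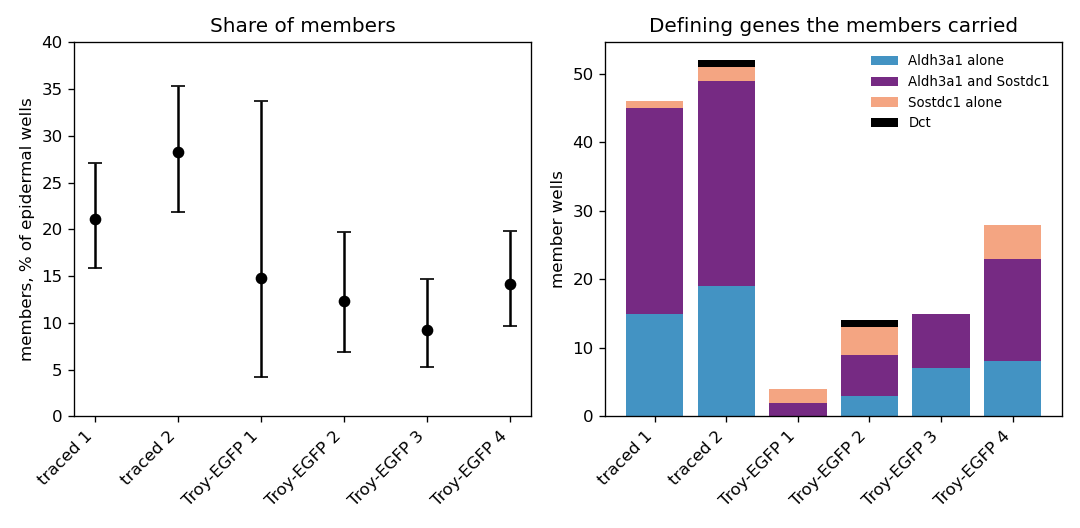
Left, members as a percentage of the epidermal wells of each mouse, with 95% exact binomial intervals as bars. Right, the number of members in each mouse by the defining gene they carried: the 2 traced mice hold 46 and 52 members and the 4 *Troy*-EGFP mice 4 to 28, and *Dct* appears in 1 well each of traced mouse 2 and *Troy*-EGFP mouse 2.

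Most members carried *Aldh3a1*, and most of these carried *Sostdc1* as well. *Aldh3a1* (chr11:61207537-61218421, GRCm38, plus strand) was present in 143 of 159 members, with a median of 4.00 and a maximum of 30.1 transcripts in a positive well. *Sostdc1* (chr12:36314139-36318452, plus strand) was present in 105, with a median of 4.00 and a maximum of 33.1 transcripts. Both were found together in 91 members, *Aldh3a1* without *Sostdc1* in 52 and *Sostdc1* without *Aldh3a1* in 14. These values chose the members and are given as a description. Every member of *Troy*-EGFP mouse 3 carried *Aldh3a1*, whereas all 4 members of *Troy*-EGFP mouse 1 carried *Sostdc1*.

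*Dct* (chr14:118012790-118052244, minus strand) marked a different kind of well. One well of traced mouse 2 held 56.4 *Dct* transcripts with 6.00 of *Pmel*, 5.00 of *Tyrp1* and 1 of *Tyr*, and one well of *Troy*-EGFP mouse 2 held 19.0 *Dct* transcripts with 2.00 of *Pmel* and 1 of *Tyrp1*. *Pmel*, *Tyrp1* and *Tyr* are pigment genes of melanocytes. Both wells lacked *Aldh3a1*, *Sostdc1* and the basal keratin *Krt14*. Outside the members, *Dct* was found in 7 wells with 1 transcript each. Leaving both wells out changed the number of genes called against undifferentiated wells from 140 to 139.

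**Figure D2:**
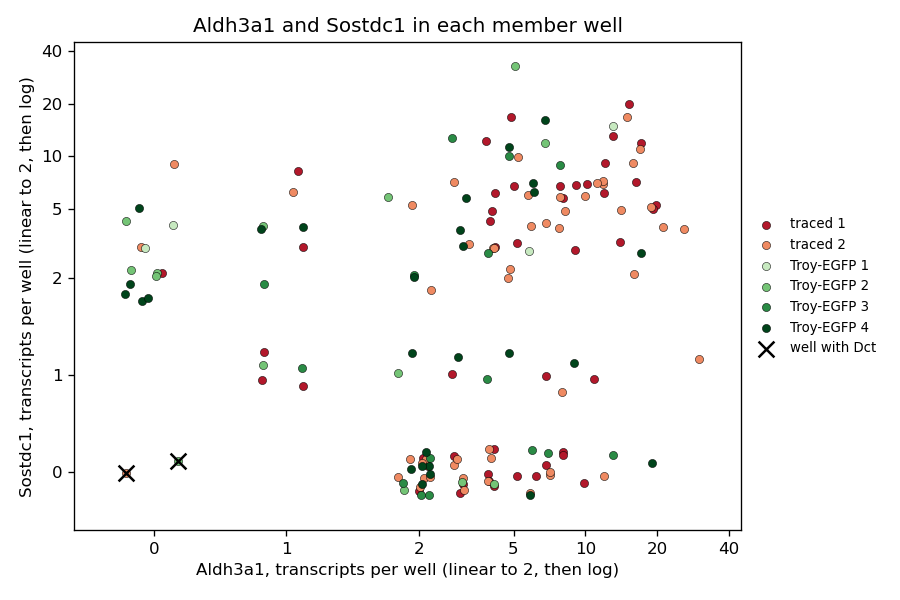
Transcripts of *Aldh3a1* (horizontal) and *Sostdc1* (vertical) in each of the 159 members, on axes that are linear to 2 and logarithmic above, with a small random offset so that wells do not hide each other; colors mark the mouse. Wells with both genes fill the upper right, 52 wells lie along the bottom with *Aldh3a1* alone, and the 2 crossed wells at the origin carry *Dct* and neither other gene.

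The border of the set ran through a continuous range. Among members, 34 held from 2 to under 3 defining transcripts, the median was 7 and the maximum 56.4. Among the 236 undifferentiated wells, 57 held 1 such transcript and 179 held none, and the 57 were deeper (median 4105 transcripts) than members. Members reached 0.291% *Krt1* and *Krt10* (limit 0.3%), 0.348% *Cst6*, *Defb6* and *Krt79* (limit 0.4%), and 0.132% of the bulge genes (limit 0.15%), while 101, 74 and 115 of the 159 members held none of these. Another 167 epidermal wells had 2 or more defining transcripts but were over a limit: 44.2% of upper follicle wells, 32.9% of bulge wells and 25.0% of committed wells. Of 105 immune wells, which should lack both genes, 4 (3.81%) reached 2 transcripts, at a median depth of 2103 transcripts, and *Aldh3a1* itself was seen in 9.52% and *Sostdc1* in 5.71% of immune wells.

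The other 3 genes of the working name, which came from an earlier grouping of these same cells and are therefore described without a test, were present in a minority of members. *Igfbp4* (chr11:99041244-99054392), which binds insulin-like growth factors, was found in 63 of 159 members. *Abi3bp* (chr16:56477878-56690135), an extracellular matrix protein, was found in 32, and *Slco2b1* (chr7:99657804-99711340), an organic anion transporter, in 35. After every well was thinned to 1000 barcodes, *Igfbp4* was seen in 24.5% of members, 29.8% of upper follicle wells, 23.6% of bulge wells and 6.78% of undifferentiated wells. *Slco2b1* was seen in 8.81% of members, 8.65% of upper follicle wells, 1.24% of bulge wells and 0 of 236 undifferentiated wells, which allows a share of up to 1.27%, and *Abi3bp* in 7.55%, 10.6%, 2.07% and 0.847% of these classes. In sums per mouse, *Igfbp4* stood at 346, 759.5, 81.3, 437 and 364 CPM in members and 36.3, 56.3, 19.9, 34.2 and 279.6 CPM in undifferentiated wells, lists of 5 being in the order traced mice 1 and 2 and *Troy*-EGFP mice 2, 3 and 4 here and below, and was close in both classes of *Troy*-EGFP mouse 4. By *Slco2b1* and *Abi3bp* the members lay nearest the upper follicle wells, which the rule had set apart from them by *Cst6*, *Defb6* and *Krt79*, and by *Igfbp4* nearest the bulge wells.

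Within the members, these genes were found most often in wells with both defining genes. *Slco2b1* was found in 31 of the 91 members with both defining genes (34.1%) and in 4 of the 14 with *Sostdc1* alone (28.6%), and in 0 of the 52 with *Aldh3a1* alone. A count of 0 allows up to 5.77% of such wells to hold a detected transcript and does not limit the share of cells that express the gene at a lower level. The wells with *Aldh3a1* alone had the highest median depth (4195 transcripts), those with both had 3441 and those with *Sostdc1* alone the lowest (2873), so the shares of the last group rest on few and shallow wells. *Abi3bp* was found in 28.6% of wells with both, 9.62% with *Aldh3a1* alone and 7.14% with *Sostdc1* alone. *Igfbp4* followed with 47.3%, 34.6% and 14.3%. *Lgals9* (chr11:78962974-78984946), a galectin, was found in 53.8%, 23.1% and 28.6% of these wells, and *Acsl4*, which charges arachidonic acid with coenzyme A, in 35.2%, 19.2% and 7.14%. Wells of a mouse share a plate, so these shares are descriptions over pooled wells.

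**Figure D3:**
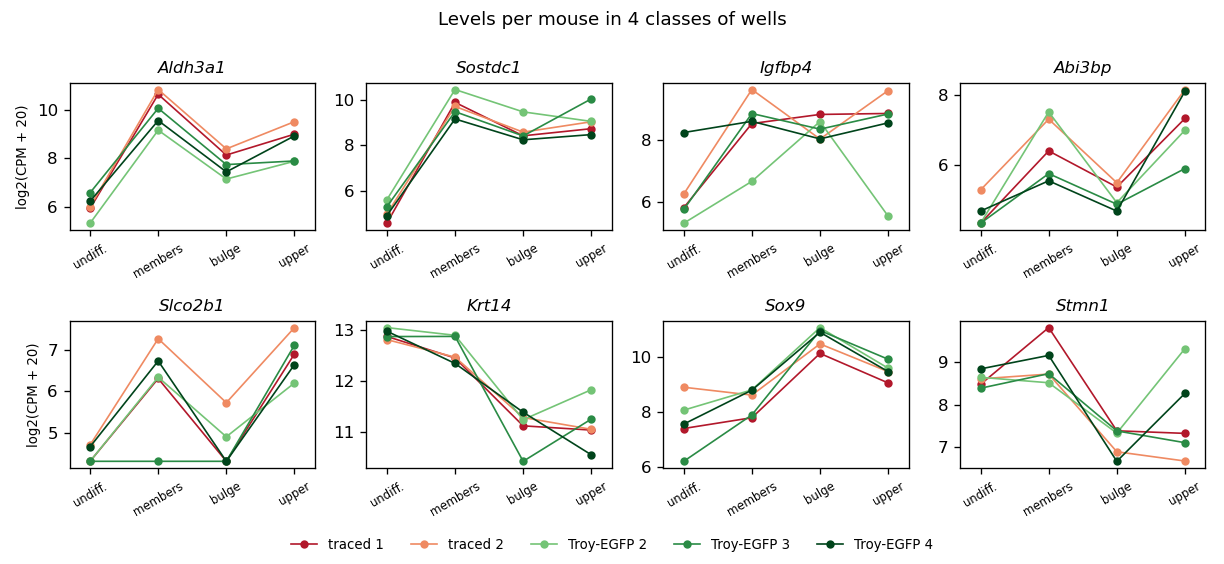
Level of 8 genes per mouse, as log2(CPM + 20) of the summed transcripts, in undifferentiated wells, members, bulge wells and upper follicle wells; each line is a mouse, and *Troy*-EGFP mouse 1 is not shown because it had 4 members. *Aldh3a1*, *Sostdc1*, *Igfbp4*, *Abi3bp* and *Slco2b1* are lower in undifferentiated wells than in members or upper follicle wells in nearly all mice, *Krt14* is high in undifferentiated wells and members, and *Sox9* is highest in bulge wells.

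The closest comparison was with the undifferentiated wells, since by the rule they differ from members only in the defining transcripts. Transcripts were summed per mouse and class, and sums of at least 5 wells were tested with the mouse as a block. Members, undifferentiated, committed, bulge and upper follicle sums entered 1 fit and shared its spread, with 28 sums from 6 mice. The comparisons with bulge and upper follicle wells below use the same fit. Member sums came from 5 mice, and *Troy*-EGFP mouse 1 gave sums of other classes only. The members were chosen on transcripts of the same wells, so a call says that a gene went with *Aldh3a1* and *Sostdc1* across mice, and it is no evidence that the wells are a separate cell type. Of 4055 genes tested, 140 (3.45%) were called at an adjusted p of 0.05, 76 higher (1.87%) and 64 lower (1.58%) in members, and the median log2 fold change of all genes was -0.04. These counts hold *Aldh3a1*, *Sostdc1* and other genes of the rule and the working name, without which 68 rose and 64 fell. Genes both called and alike in direction over the 5 mice made up 2.47%. The genes that rose included the glutathione transferase *Mgst1* and the acyl-CoA synthetases *Acsl4* and *Acsbg1*, and those that fell included the interleukin 1 decoy receptor *Il1r2*, metallothioneins and *Igfbp3*. The number of calls was 83 without traced mouse 1, 86 without traced mouse 2, 79 without *Troy*-EGFP mouse 4 and 67 without *Troy*-EGFP mice 3 and 4.

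*Mgst1*, *Acsl4*, *Alox12e* and *Acsbg1* were among the 15 largest rises, counted here and below, as are the 10 largest falls, over called genes that moved alike in every mouse and held at least 20 transcripts in either class, genes of the rule left aside. *Mgst1*, a membrane-bound glutathione S-transferase also abundant in sebaceous glands, stood at 227, 172, 61.0, 151 and 139 CPM in members. In undifferentiated wells of the same mice it stood at 18.2, 0, 9.96, 0 and 0 CPM. All 5 mice were higher and the groups did not overlap (log2 fold change 3.50 ± 0.58, adjusted p = 3.7e-05). The undifferentiated sums held 5 *Mgst1* transcripts in all, so the size of this fold rests on few transcripts.

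*Acsl4* stood at 198, 243, 224, 84.1 and 79.5 CPM in members and 9.08, 25.0, 29.9, 6.83 and 21.9 CPM in undifferentiated wells, again without overlap (2.92 ± 0.42, adjusted p = 3.7e-06). *Alox12e*, an epidermal lipoxygenase, stood at 1459, 1081, 244, 202 and 491 CPM against 68.1, 163, 119.5, 137 and 120.4 CPM (2.50 ± 0.30, adjusted p = 1.8e-08). Its rise was large in the 2 traced mice and *Troy*-EGFP mouse 4 and small in *Troy*-EGFP mice 2 and 3. *Acsbg1*, a very long chain acyl-CoA synthetase, stood at 98.8, 157, 20.3, 522 and 252 CPM against 27.2, 81.3, 0, 41.0 and 38.3 CPM (2.23 ± 0.39, adjusted p = 9.9e-05). It rose within each mouse, but the levels overlapped between mice, and without *Troy*-EGFP mice 3 and 4 it did not pass the test (adjusted p = 0.44).

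*Aadac*, an esterase of the endoplasmic reticulum, rose by 2.75 on the log2 scale from 6 transcripts in undifferentiated wells to 43 in members. Further rises among the 15 largest were the peptidoglycan-binding protein *Pglyrp4* (3.04), the GTPase-activating protein *Dlc1* (2.62), the adhesion protein *Igsf9* (2.49), the RNA-binding protein *Rbms3* (2.36), the chemokine *Cxcl12* (2.30), the metalloreductase *Steap4* (2.29) and the homeobox factor *Irx1* (2.28). *Epas1*, the oxygen-regulated factor HIF-2α, stood at 148, 85.9, 142, 286 and 159 CPM in members against 0, 18.8, 19.9, 41.0 and 60.2 CPM and was higher in all 5 mice without overlap (2.32 ± 0.52, adjusted p = 0.0026).

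Of 25 glutathione and oxidant defence genes tested, 5 rose, none fell and 20 were not called, with a median of 0.51 against -0.04 for all genes. Besides *Mgst1* these were *Gclm*, the modifier subunit of the enzyme that starts glutathione synthesis (2.18 ± 0.54, adjusted p = 0.01), the glutathione transferase *Gstm5* (1.47 ± 0.34, adjusted p = 0.0042), the superoxide dismutase *Sod1* (0.90 ± 0.23, adjusted p = 0.015) and *Akr1c18*. *Akr1c18*, which the list held, encodes a steroid enzyme and is described in the next paragraph. *Gstm5* was lower in 1 of 5 mice, while *Gclm* and *Sod1* were higher in all 5. Without *Troy*-EGFP mice 3 and 4, 2 of 23 genes rose, *Mgst1* and *Gstm5*. The call of *Gclm* was lost without traced mouse 1 (adjusted p = 0.077) and without *Troy*-EGFP mouse 2 (adjusted p = 0.061).

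*Akr1c18* (chr13:4132615-4150654), a 20α-hydroxysteroid dehydrogenase of progesterone breakdown, was carried almost wholly by 2 mice. It stood at 9.88, 57.3, 0, 2161 and 1861 CPM in members and 0, 0, 0, 6.83 and 164 CPM in undifferentiated wells (4.36 ± 0.42, adjusted p = 2.8e-11). The high values came from 5 wells of *Troy*-EGFP mouse 3 and 9 wells of *Troy*-EGFP mouse 4, with up to 91.0 transcripts in a well. All 17 members with *Akr1c18* also carried *Aldh3a1*, a gene that chose the members and was present in 143 of all 159. *Troy*-EGFP mice 3 and 4 were the pair with *Xist*, and without them *Akr1c18* held too few transcripts to be tested. With DESeq2 the difference was 4.03 and did not pass the test (adjusted p = 0.14).

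Of 12 aldehyde and retinoid genes tested, *Aldh3a1* left aside, 3 rose and none fell, with a median of 0.26. *Adh7*, an alcohol dehydrogenase that oxidizes retinol, stood at 459.6, 577, 508, 219 and 119 CPM against 231, 325, 109.6, 95.7 and 38.3 CPM and was higher in each of 5 mice (1.19 ± 0.25, adjusted p = 0.0014), though mice of the 2 classes overlapped. *Aldh6a1*, a mitochondrial dehydrogenase of valine breakdown, rose by 1.41. Of 6 sebaceous gland genes tested, 3 rose, *Mgst1*, the lipid droplet protein *Plin2* (1.85) and the lactate dehydrogenase subunit *Ldhb* (2.15), none fell, and the median was 1.43. *Scd1*, a fatty acid desaturase of sebocytes, was not called (0.30 ± 0.29, adjusted p = 0.82). The summed level of the 14 listed sebaceous genes was 345 to 1464 CPM in members and 269 to 390 CPM in undifferentiated wells of the 5 mice, and its part in the rises above was not tested. Without *Troy*-EGFP mice 3 and 4, *Adh7* was the 1 aldehyde and retinoid gene of 12 and *Mgst1* the 1 sebaceous gene of 5 that rose.

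**Figure D4:**
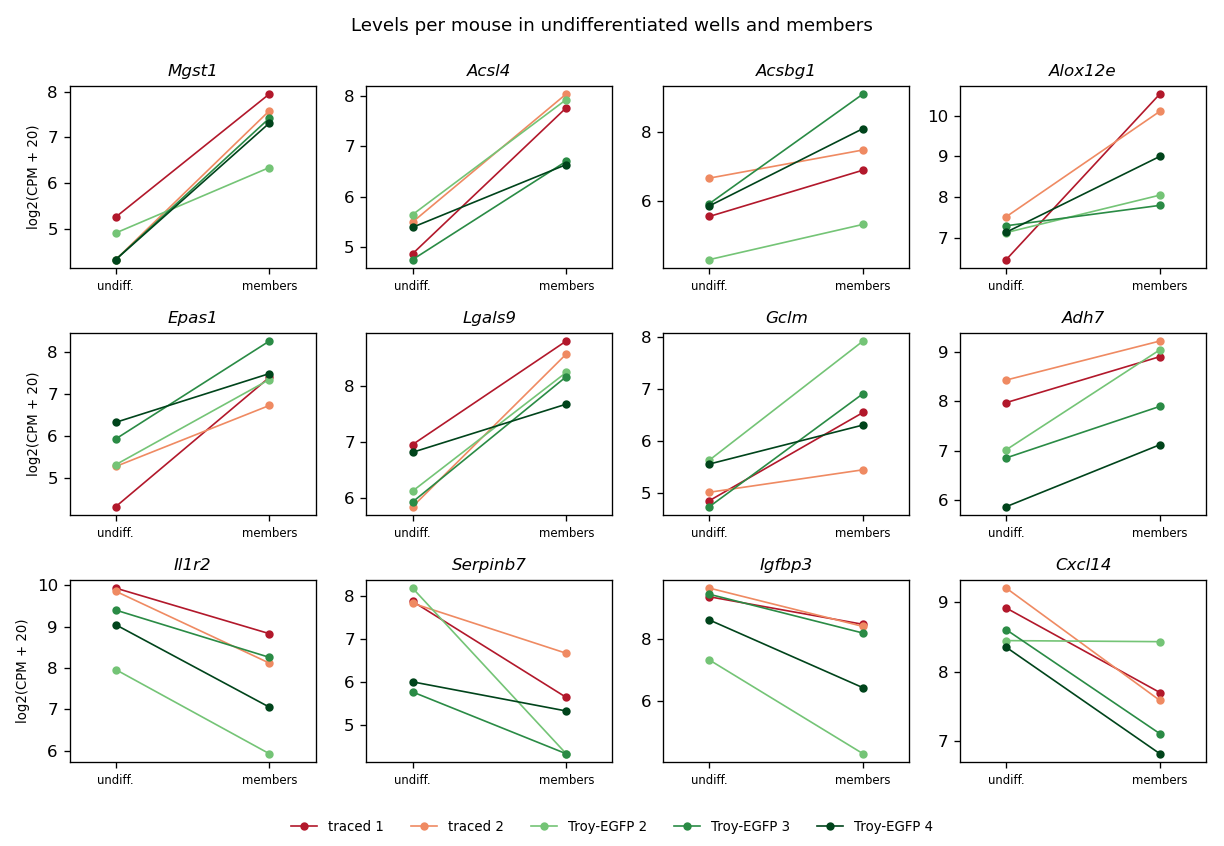
Level of 12 genes per mouse, as log2(CPM + 20) of the summed transcripts, in undifferentiated wells (left) and members (right) of the 5 mice with at least 5 members. The upper 8 genes are higher in members of every mouse; *Il1r2*, *Serpinb7* and *Igfbp3* are lower in members of every mouse, and *Cxcl14* is lower in every mouse, by little in *Troy*-EGFP mouse 2.

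Some genes that mark hair follicle compartments differed from undifferentiated wells. Of 17 bulge and outer follicle genes tested, 4 rose (*Cxcl12*, the activin and BMP antagonist *Fst*, the vitamin D receptor *Vdr* and the factor *Nfib*), the growth arrest gene *Gas1* fell, and the median was 0.15. *Fst* stood at 143, 401, 569, 84.1 and 192 CPM against 81.9, 68.9, 229, 34.2 and 142 CPM (1.23 ± 0.37, adjusted p = 0.047), and *Vdr* rose by 0.98 and *Nfib* by 0.57. Of 11 isthmus and upper follicle genes tested, 2 rose, among them the antimicrobial peptide *Defb1* (2.34 ± 0.52, adjusted p = 0.0028), and *Fgfr3* fell, with a median of 1.09. Genes that name these compartments were not called: the upper follicle factor *Gata6* differed by 1.95 ± 0.65, adjusted p = 0.088, the isthmus regulator *Lrig1* by 1.09 ± 0.58, adjusted p = 0.45 and the outer root sheath factor *Sox9* by 0.60 ± 0.26, adjusted p = 0.28. The share of all tested genes called was 3.45%. Without *Troy*-EGFP mice 3 and 4, *Cxcl12* and *Fst* were called of 18 bulge and outer follicle genes, and *Defb1* and *Fgfr3* of 10 isthmus and upper follicle genes. Both lists are affected by the limits, which removed wells with *Cst6*, *Defb6*, *Krt79* or bulge genes from both classes alike.

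*Sostdc1* acts on BMP and Wnt signaling. None of 5 Wnt ligand and secretion genes and none of 6 BMP target genes tested was called. Of 11 Wnt receptor and co-receptor genes 1 fell, *Lrp4*, a co-receptor that binds *Sostdc1* (-1.23 ± 0.36, adjusted p = 0.037, lower in 4 of 5 mice), a call lost without *Troy*-EGFP mice 3 and 4. Of 3 Wnt inhibitors 1 fell, *Sfrp1* (-1.47 ± 0.37, adjusted p = 0.01, lower in 4 of 5 mice). Of 5 BMP inhibitors 1 rose, *Fst*, while *Nbl1*, also a BMP antagonist, fell (-1.55 ± 0.47, adjusted p = 0.049). Neither BMP ligand tested was called. *Troy* itself (*Tnfrsf19*, chr14:60963875-61046490) held 31 transcripts in members and 35 in undifferentiated wells and was not called (0.53 ± 0.55, adjusted p = 0.84). The EGFP cassette takes the place of the coding region of this gene and the traced mice carry 2 such alleles, so its level mixes genotypes: it stood at 4.94 and 28.6 CPM in members of the traced mice and at 122, 50.4 and 99.3 CPM in those of *Troy*-EGFP mice 2, 3 and 4.

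*Il1r2*, *Igfbp3* and *Serpinb7* were among the genes that fell. *Il1r2*, which captures interleukin 1 without signaling, stood at 435, 258, 40.6, 286 and 113 CPM in members and 958, 908, 229, 656 and 509 CPM in undifferentiated wells, lower in each of 5 mice (-1.63 ± 0.27, adjusted p = 3.6e-05). *Igfbp3*, an insulin-like growth factor binding protein, stood at 331, 315, 0, 269 and 66.2 CPM against 627, 764, 139, 664 and 367 CPM (-1.38 ± 0.27, adjusted p = 0.00058), so that it fell where *Igfbp4* was higher. *Serpinb7*, a serine protease inhibitor, stood at 29.6, 81.1, 0, 0 and 19.9 CPM against 213, 206, 269, 34.2 and 43.8 CPM (-2.28 ± 0.50, adjusted p = 0.002). All 3 were lower in every mouse, while the levels of different mice overlapped between the classes. With DESeq2 the call of *Il1r2* was lost (adjusted p = 0.70), and without *Troy*-EGFP mice 3 and 4 that of *Igfbp3* was lost.

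Further falls among the 10 largest of this kind were the gap junction protein *Gjb5* (-2.07), the matrix protein *Sparc* (-1.96), the growth factor receptor *Fgfr3* (-1.74), *Cpxm2* (-1.95), *Atrnl1* (-1.79), *Cwh43* (-1.65), the kinase *Wnk2* (-1.65) and the BMP antagonist *Nbl1* (-1.55). Of 10 interfollicular basal genes tested none rose and 3 fell, the chemokine *Cxcl14* (-1.32 ± 0.28, adjusted p = 0.0013) and the metal-binding metallothioneins *Mt1* (-0.62) and *Mt2* (-1.15), with a median of -0.60. Of 13 basal keratinocyte genes 2 fell, the hemidesmosome genes *Itga6* (-0.87 ± 0.21, adjusted p = 0.008) and *Col17a1* (-0.58 ± 0.15, adjusted p = 0.019), and the median was -0.43. *Krt14* (-0.36 ± 0.17, adjusted p = 0.33), *Krt5* (-0.49 ± 0.19, adjusted p = 0.17) and *Krt15* (-0.49 ± 0.19, adjusted p = 0.16) were not called. Without *Troy*-EGFP mice 3 and 4, *Mt2* was the 1 call among 9 interfollicular basal genes, and 0 of 13 basal keratinocyte genes were called by edgeR. *Krt14* stood at 5557, 5620.3, 7559.9, 7445 and 5162 CPM in members and 7444, 7129, 8389, 7430.4 and 7988 CPM in undifferentiated wells, high in both classes. The T cell gene *Cd52* fell from 76 to 6 transcripts, and the 13 listed T cell genes summed to 29.6 to 244 CPM in members and 82.0 to 394 CPM in undifferentiated wells, whose part in the other falls was not tested. Of the 5 mice, *Troy*-EGFP mouse 3 had more of these transcripts in members than in undifferentiated wells.

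Cycling cells were present among members. Of 13 proliferation genes tested against undifferentiated wells none was called, and the median was -0.12. *Mki67*, a marker of cycling cells, stood at 605, 81.1, 0, 0 and 26.5 CPM in members, from 7, 5, 0, 0 and 3 wells, and at 145, 68.8, 9.96, 0 and 32.8 CPM in undifferentiated wells (1.15 ± 0.54, adjusted p = 0.35). The value of traced mouse 1 came from 7 wells, 1 of them with 58.4 transcripts. The 24 listed proliferation genes summed to 1682 to 6946 CPM in members and 1852 to 3962 CPM in undifferentiated wells, with the highest value again in traced mouse 1. Of 19 immediate early genes, which rise when tissue is dissociated, 1 rose (*Egr2*, 2.48) and none fell.

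Markers of Merkel cells, fibroblasts and endothelial cells were low in members. Melanocyte and Langerhans cell genes were present in members and in undifferentiated wells. The 8 Merkel cell genes summed to 0 to 67.2 CPM, the 8 fibroblast genes to 0 to 143 CPM and the 7 endothelial genes to 0 to 14.3 CPM over the 5 mice, with between 0 and 27.3 CPM of endothelial genes in undifferentiated wells. The 14 melanocyte genes summed to 33.1 to 651 CPM in members, highest in the mice with a *Dct* well, and to 59.0 to 209 CPM in undifferentiated wells. The 13 Langerhans cell genes summed to 267 to 861 CPM in members and 238 to 848 CPM in undifferentiated wells. Few genes of these lists passed the filter: 1 melanocyte, 1 Merkel cell, 1 fibroblast, 3 Langerhans cell and 0 endothelial genes. None of these was called against undifferentiated wells. A further 3 Langerhans cell genes belong to the rule and were left aside, and its limits removed wells high in antigen-presenting cell genes from both classes. So few genes cannot tell whether cells of these types differ between the classes.

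Against all 745 other epidermal wells, 507 of 5849 genes (8.67%) were called, 144 higher (2.46%) and 363 lower (6.21%), and 311 were called without traced mouse 2. Without genes of the rule and the working name 138 rose and 353 fell. Genes called and changed alike in every mouse made up 6.36%. The falls included 8 of 12 committed, 9 of 17 bulge and outer follicle and 5 of 10 isthmus and upper follicle genes tested, and the limits had removed wells high in genes of these kinds from members. *Lgals9* stood at 430, 363, 285, 269 and 185 CPM in members and 112, 37.5, 70.1, 33.2 and 46.7 CPM in other wells, without overlap (2.32 ± 0.23, adjusted p = 2.9e-15). *Epas1* rose by 2.40, the lipoprotein lipase *Lpl* by 2.67, the neurotrophin receptor *Ntrk2* by 2.27, the ceramide synthase *Cers4* by 1.90, the G protein regulator *Rgs10* by 1.86 and *Acsbg1* by 1.73. Of 8 sebaceous gland genes tested 5 rose (*Elovl6*, *Ldhb*, *Mgst1*, *Plin2* and the adipogenic factor *Pparg*) and *Fabp5* fell. *Pparg* held 20 transcripts in members and 4 in the other wells. Without *Troy*-EGFP mice 3 and 4, *Mgst1* was the 1 sebaceous gene of 6 tested that rose, and 0 fell.

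Bulge wells differed from members in 740 of 4055 genes (18.2%), 317 higher (7.82%) and 423 lower (10.4%) in members, or 309 and 418 without genes of the rule and the working name. Of 17 bulge and outer follicle genes tested, the limit genes left aside, none rose, 15 fell and the median was -2.45, as the bulge limit would favor. *Sox9* stood at 203, 372, 427, 219 and 424 CPM in members and 1095, 1395, 2108, 1958 and 1874 CPM in bulge wells (-2.45 ± 0.24, adjusted p = 1.6e-12), and the matricellular gene *Ctgf* (-4.79) and the Wnt inhibitor *Sfrp1* (-4.74) fell further. Of 6 BMP target genes 4 fell, among them *Id1* (-1.74) and *Id3* (-2.59), and of 5 BMP inhibitors 3 fell, *Fst*, *Nog* and *Grem1*, and 1 rose, the secreted protease *Htra1*. Without *Troy*-EGFP mice 3 and 4, 2 of the 5 BMP inhibitors fell, *Grem1* and *Nog*, and 0 rose. The BMP ligand *Bmp4* rose, from 5 transcripts in bulge wells to 60 in members.

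Members had more transcripts of proliferation genes than bulge wells, and basal genes differed in both directions. Of 13 proliferation genes tested 11 rose and the median was 1.46. *Stmn1*, a microtubule regulator of dividing cells, stood at 876, 401, 346, 404 and 550 CPM against 147, 99.0, 141, 147 and 81.9 CPM without overlap (2.03 ± 0.30, adjusted p = 2.8e-07). *Pcna*, the clamp of DNA replication, rose by 1.06 and was higher in each of 5 mice. *Mki67* was called (1.84 ± 0.64, adjusted p = 0.034) although it was higher in only 2 of 5 mice. Of 13 basal keratinocyte genes tested 2 rose (*Krt14* and *Itga6*), 4 fell (*Col17a1*, *Krt15*, *Lamb3* and *Perp*) and the median was -0.18. *Krt14* stood at 5557, 5620.3, 7559.9, 7445 and 5162 CPM against 2210, 2475, 2403, 1361 and 2659 CPM (1.44 ± 0.17, adjusted p = 1e-09), and the IFE surface gene *Ly6a* rose by 2.67. *Tnfrsf19* rose from 5 transcripts in bulge wells to 31 in members and was higher in each of 5 mice (2.90 ± 0.74, adjusted p = 0.0024). Without *Troy*-EGFP mice 3 and 4 *Tnfrsf19* was not called. *Acsbg1* (3.84) and *Acsl4* (3.43) were among the 15 largest rises here too, as was *Il1r2* (4.05), which had fallen against undifferentiated wells.

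Against upper follicle wells, 808 of 4055 genes (19.9%) were called, 388 higher (9.57%) and 420 lower (10.4%), or 385 and 415 without genes of the rule and the working name, and 537 were called without traced mouse 1. The members were the more basal class by the listed genes, though the limit that set the classes apart may favor this. Of 13 basal keratinocyte genes 12 rose and the desmosomal gene *Perp* fell, with a median of 1.91. *Krt5* stood at 15417, 14789, 11237, 17653 and 13103 CPM against 2644, 2539, 3972, 4894 and 1135 CPM (2.21 ± 0.21, adjusted p = 8.6e-13), *Itga6* rose by 1.91 and *Col17a1* by 2.05. *Ly6a* held 148 transcripts in members and 3 in upper follicle wells. *Bmp4* and the ligand *Wnt3* held 60 and 38 transcripts in members and none in upper follicle wells.

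Of 11 isthmus and upper follicle genes 9 fell against upper follicle wells, with a median of -3.54, as the upper follicle limit would favor. *Krt17* stood at 853, 378, 81.3, 84.1 and 412 CPM in members and 7206, 7841, 4760.5, 6508 and 8916 CPM in upper follicle wells (-4.21 ± 0.36, adjusted p = 2.1e-14), and *Gata6* (-2.85), the isthmus surface gene *Plet1* (-2.38) and *Defb1* (-2.27) fell with it. *Defb1*, which had risen against undifferentiated wells, therefore stood between the levels of both classes. *Mgst1* was higher than in upper follicle wells as well (1.82 ± 0.55, adjusted p = 0.013, higher in 5 of 5 mice), but was not called without traced mouse 1 (adjusted p = 0.053) or without *Troy*-EGFP mouse 4 (adjusted p = 0.059).

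With all member sums in the fit, few genes differed in members between experiments, and these genes moved in the same direction in the other wells. Of 3265 genes tested between members of the 2 traced mice and of *Troy*-EGFP mice 2, 3 and 4, 28 (0.858%) were called, 11 higher (0.337%) and 17 lower (0.521%) in traced mice. For all 28 the mice did not overlap, and for all 28 the other epidermal wells moved the same way, without overlap. The share of all tested genes without overlap was not counted. The other wells come from the same mice and plates, so these counts add no separate evidence. The rises included the stress keratin *Krt6a* (555, 468, 61.0, 0 and 6.62 CPM in members), the glycolytic enzyme *Tpi1*, the actin regulator *Cfl1* and the glutathione transferase *Gstm2* (2.00 ± 0.39, adjusted p = 0.045). The falls included unnamed transcripts such as *Gm10785* and *A630089N07Rik*. The 28 also hold *Kcnq1ot1* and *H2-Aa*, which were used to set wells aside and are not results here; *Kcnq1ot1* stood at 781, 754, 9845, 17854 and 22471 CPM in members. Of 2 inner bulge and companion genes tested *Krt6a* was called, while the 3 genes of the working name tested, the 8 bulge and outer follicle genes and the 4 isthmus and upper follicle genes were not. The count was 546 without *Troy*-EGFP mouse 2, 11 without traced mouse 1, 7 without *Troy*-EGFP mouse 4 and 292 without *Troy*-EGFP mice 3 and 4, so it depends on which mice enter. The difference between members and other wells was not the same in the 2 experiments for 5 of 5849 genes (0.0855%), all with a larger value in traced mice, among them *Krt6a*. Without *Troy*-EGFP mouse 2 the number was 6, with 2 larger and 4 smaller in traced mice (*Cd24a*, *Fgfbp1*, *Ldhb* and *Plin2*), and *Krt6a* was the 1 gene shared with the 5. Without *Troy*-EGFP mice 3 and 4 it was 18, 13 larger and 5 smaller, with 3 of the 5 among them, and the remaining *Troy*-EGFP mouse was assumed to vary like the traced mice.

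The bulk libraries, which the rule did not use, gave a separate measure. There *Aldh3a1* was lower in ITGA6bright EGFP+ cells than in EGFP- cells, at 765 and 860 CPM in replicates 1 and 2 against 1098 and 2289.8 CPM (-1.13 ± 0.33, adjusted p = 0.043). *Sostdc1* stood at 1260.2 and 1319 CPM against 1815 and 3039 CPM (-0.99 ± 0.31, adjusted p = 0.064) and was called when the replicate entered as a block (-0.96, adjusted p = 0.033). *Igfbp4* stood at 27.2 and 8.43 CPM against 184 and 653 CPM (-4.45 ± 0.53, adjusted p = 2.5e-05). The replicates did not overlap for any of the 3 genes, as was so for 48.0% of all genes tested in bulk. The paper reported the bulge genes *Sox9*, *Lhx2* and *Nfatc1*, *Krt79* of the hair canal and *Gata6* of the sebaceous duct lower in EGFP+ cells too. Of upper follicle wells 44.2% and of bulge wells 32.9% also reached the defining count, and the part of such cells in these falls was not tested.

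*Slco2b1* was lower in EGFP+ cells as well (-1.53 ± 0.42, adjusted p = 0.031), *Abi3bp* did not pass the test (-2.58 ± 0.84, adjusted p = 0.073) with 1 to 18 counts a library, and *Dct* held 0 to 8 counts and was not tested. *Tnfrsf19*, which should follow the sort, was higher in EGFP+ cells (1.65 ± 0.49, adjusted p = 0.044). In bulk samples, fewer cells of a type and less RNA per cell cannot be told apart. Of 4654 genes tested in bulk, 323 (6.94%) were called, 135 higher (2.9%) and 188 lower (4.04%) in EGFP+ cells, 129 without the EGFP+ library of replicate 1 and 751 without the EGFP- library of replicate 2.

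The genes that separated members from undifferentiated wells ran the other way in the EGFP sort. Of the genes that rose in members, 57 were tested in bulk, genes of the rule and the working name left aside, and 34 of these were lower in EGFP+ cells and 0 higher, with a median of -1.63 against -0.04 for all genes. Of the 57 that fell in members, 15 were higher and 1 lower in EGFP+ cells, with a median of 0.93. Over all 114 the signs were opposite for 99, and Pearson's r between the log2 fold changes was -0.77, against -0.38 over the 3374 genes tested in both. The comparisons with bulge and upper follicle wells gave the opposite sign. Of the genes that rose against bulge wells, 282 were tested in bulk, 42 of them higher and 17 lower in EGFP+ cells. Of the 301 that fell, 10 were higher and 39 lower. Here r was 0.31 over the 583 genes called, 248 of them opposite in sign, and 0.19 over all genes tested in both. Of the 353 tested genes that rose against upper follicle wells, 41 were higher and 12 lower, and of the 330 that fell, 14 were higher and 47 lower. For these wells r was 0.34 over 683 genes, 301 of them opposite, and 0.21 over all. Among all genes tested in bulk, 2.9% were called higher and 4.04% lower in EGFP+ cells. Against all other wells r was -0.27 over 378 genes called and -0.11 over all. These are correlations across genes, which are not independent replicates, and carry no p. How far bulge, upper follicle or other cells among the EGFP- cells account for these signs was not tested.

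*Acsl4* stood at 39.6 and 29.5 CPM in EGFP+ cells and 229 and 154 CPM in EGFP- cells (-2.49 ± 0.39, adjusted p = 0.00036). *Alox12e* stood at 374 and 304 CPM against 1447 and 898 CPM (-1.88 ± 0.34, adjusted p = 0.0014), and *Mgst1* (-2.39 ± 0.52, adjusted p = 0.0066), *Gclm* (-2.41 ± 0.43, adjusted p = 0.0011), *Gstm5* (-2.45 ± 0.33, adjusted p = 7.1e-05), *Fst* (-2.38 ± 0.36, adjusted p = 0.00023) and *Defb1* (-2.41 ± 0.48, adjusted p = 0.0033) were lower too. *Akr1c18* held 0 and 1 counts in EGFP+ libraries and 15 and 21 in EGFP- libraries. *Il1r2* and *Serpinb7*, which had fallen in members, were higher in EGFP+ cells, at 196 and 198 CPM against 19.0 and 26.6 CPM (2.99 ± 0.49, adjusted p = 0.00053) and at 218 and 223 CPM against 12.7 and 37.2 CPM (2.99 ± 0.44, adjusted p = 0.00018). *Lgals9* (-0.54 ± 0.28, adjusted p = 0.3) and *Epas1* (-1.04 ± 0.44, adjusted p = 0.18) did not pass the test.

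**Figure D5:**
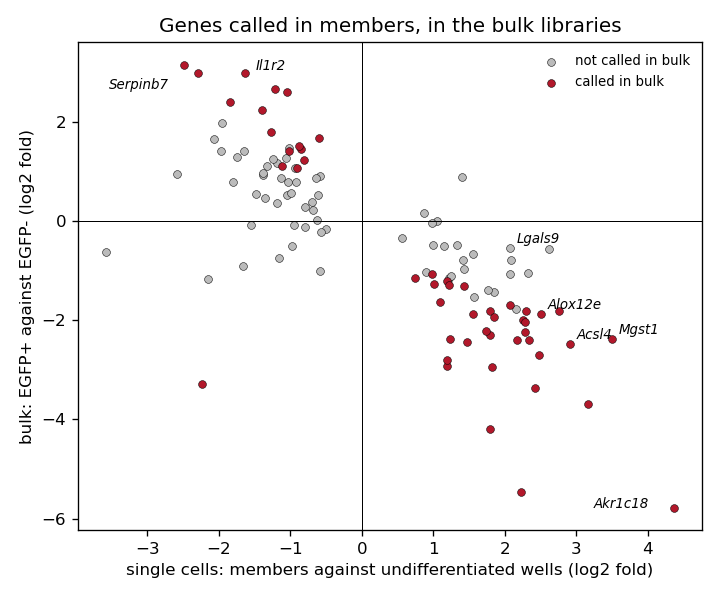
Log2 fold change of the 114 genes called in members against undifferentiated wells and tested in bulk, genes of the rule and the working name left aside (horizontal), and of the same genes between ITGA6bright EGFP+ and EGFP- bulk libraries (vertical); red points passed the test in bulk. Genes higher in members lie mostly below 0 in the EGFP sort (34 called lower, 0 higher) and genes lower in members mostly above it (15 called higher, 1 lower).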

How the data were processed

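The plates were made by SORT-seq, with 1 cell sorted to a well and 384 wells a plate, and the bulk libraries by CEL-Seq2. Per the labels, the authors mapped reads to mm10 (GRCm38) with BWA 0.6.2-r126. They deposited raw counts for the bulk libraries and, for the plates, estimated transcript counts, in which barcodes seen per gene and well were corrected for repeats among 4096 possible barcodes. Undoing that correction gave whole numbers (largest deviation 4.9e-09). ERCC and mitochondrial rows were dropped, and wells kept with at least 1000 transcripts and under 10% *Kcnq1ot1*. The plates share their well barcodes by design. No doublet caller was run.

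Transcripts were summed per mouse and class (at least 5 wells, so *Troy*-EGFP mouse 1 gave no member sum), rounded, and tested with edgeR 4.0.16 (TMM, filterByExpr, quasi-likelihood, mouse as a block, Benjamini-Hochberg at 0.05, R 4.3.3). CPM are per 1000000 transcripts of a sum. Members and other wells of a mouse deviated together (r 0.585 to 0.742 over 5 pairs). Bulk libraries (157537 to 453005 counts) were fitted without a block; the 3 populations of a replicate came from 1 labelled sample. Members, gene lists and tests were chosen with earlier results of these data known. Named were list genes and, in each comparison of members (the 4th with other wells was added later), the called genes with the 15 highest and 10 lowest log2 fold changes, if alike in every mouse (between experiments: without overlap) with at least 20 transcripts, leaving out genes of the rule and sex-linked genes; *Lgals9*, genes within members and genes in bulk were chosen after their values were seen. On simulated data with 200 genes changed by 2 on the log2 scale, the fit against undifferentiated wells found 86.5% of them, and that between experiments 60%. The values of 1 gene counted in the lists are not reported here. Coordinates are from GENCODE M21 (GRCm38). Alternatives were DESeq2 1.42.0, another normalization, no filter, thinned wells and leaving out mice.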

Additional observations from a re-analysis of the deposited data

Results flagged for a closer look

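The difference between members and other epidermal wells was not the same in traced and *Troy*-EGFP mice for 5 of 5849 genes (0.0855%), by the interaction term of edgeR's quasi-likelihood test. Before adjustment 274 genes had p under 0.05, and DESeq2 called 0. Without *Troy*-EGFP mouse 2, 6 genes were called, 2 larger and 4 smaller in traced mice, and *Krt6a* was the 1 gene shared with the 5. The values below are the difference in traced minus that in *Troy*-EGFP mice, on the log2 scale.

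*Krt6a* differed by 3.25. It stood at 555 and 468 CPM in members and 585 and 1293 CPM in other wells of the traced mice, and at 61.0, 0 and 6.62 CPM in members and 393, 106.5 and 245 CPM in other wells of *Troy*-EGFP mice 2, 3 and 4. *Fabp5*, a fatty acid binding protein, differed by 2.97 and held 26 and 11 transcripts in members of the traced mice against 0, 0 and 5. *Fam167a* differed by 7.59, with 17 and 15 transcripts in traced members and none in those of the 3 *Troy*-EGFP mice, so the size of this value has no meaning beyond its sign. *Mir6240* differed by 2.11 but was not listed in the files of *Troy*-EGFP mice 3 and 4. *Rn45s*, the ribosomal RNA precursor, differed by 0.73, and its level in members ran from 6571 CPM in *Troy*-EGFP mouse 2 to 86001 CPM in *Troy*-EGFP mouse 4. No mouse was far from the others in the 4 groups of 4 to 10 values examined, where chance marks about 1 in 20 groups.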

How the results depend on the processing

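The member share stayed higher in traced mice under every alternative run (difference 8.49 to 15.7 points when 1 mouse was left out, exact permutation p 0.1 to 0.2, the smallest those designs allow). Calls against other, undifferentiated, bulge and upper follicle wells numbered 143, 37, 240 and 294 with wells thinned to 1000 barcodes, 78, 10, 311 and 330 with no replicate block, and 272, 67, 486 and 485 without *Troy*-EGFP mice 3 and 4 (added after seeing the data). DESeq2 gave 248 against other wells. Between experiments the calls were 45 with DESeq2, 204 without a filter, 12 thinned and 292 without mice 3 and 4; the interaction gave 0 with DESeq2, 1 thinned and 18 without mice 3 and 4, and bulk 141 with DESeq2. Leaving out 1 mouse or library gave 311 to 611, 79 to 154, 561 to 768 and 537 to 806 calls in the 4 class comparisons, 7 to 546 between experiments, 1 to 10 for the interaction and 129 to 751 in bulk. Without a filter the upper follicle calls split into 508 higher and 307 lower. The replicate block gave 469 calls in bulk and changed only the call of *Sostdc1* among the genes named there; between experiments it could not be fitted, as no residual degrees of freedom were left. The causes were not tested, apart from the fewer transcripts that thinning leaves and the fewer samples.

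For 157 gene results named in the text or lists, 2213 repeats gave 0 reversals, 315 losses and 6 gains of a call. With 14 to 52 members a mouse, values under about 20 transcripts rest on few wells, and bulk had 2 libraries a side.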
